A study of Mus musculus with 6 samples.

Results

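The lysosome and V-ATPase genes described here are 32 genes of the acid compartment of the cell, chosen by name and found by symbol in a GRCm38 annotation among the 44679 genes of each deposited table. They are 2 transcription factors of the TFE family (Tfeb, Tfe3), 12 soluble enzymes, 3 soluble cofactors or carriers, 7 membrane proteins and 8 genes of the V-ATPase, the proton pump. All 32 had a row and all 32 passed the filter on low counts. The samples are 6 skin tumours of the mouse melanoma line B16F10, whose cells make pigment, 3 from mice without treatment and 3 from mice treated in vivo with vorinostat, a histone deacetylase inhibitor. Both groups carry the same line, and no other allele or agent is named for either. The dose, the schedule and the strain and age of the mice were not stated in the labels, and neither was it stated that each tumour came from a different mouse, so p-values measure the spread between these samples, which may be technical. The question was whether lysosomal enzymes, membrane proteins, pump subunits and their regulators stood at different RNA levels with the drug.

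Lysosomes break down proteins, lipids, glycans and whole organelles with hydrolases that work at acid pH. The V-ATPase makes that acidity: its V1 sector hydrolyses ATP on the cytosolic side, and its V0 sector carries protons through the membrane. TFEB and TFE3, relatives of the melanocyte factor MITF, move to the nucleus when mTORC1 at the lysosome surface is inactive and switch on lysosomal genes through an E-box variant called the CLEAR element. In pigment cells the melanosome is a lysosome-related organelle, so several of these proteins serve both compartments.

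The CLEAR element links the regulators to the other members, so the promoters are shown first. RefSeq promoters of GRCm38.p6, running from 250 bases before to 50 bases after each annotated start, were found for 29 of the 32 members. The palindrome TCACGTGA, taken as the CLEAR core, was present in a promoter of 7 of these 29 members (24.1%), against 1.12% of the 27025 genes with a promoter in the same table. The shorter E-box CACGTG, which the core contains, was present in 11 of 29 (37.9%) against 8.09% of all genes. The related letters TCATGTGA, or TCACATGA on the other strand, were present in 5 of 29 (17.2%) against 1.15% of all genes. All searches covered both strands. A match describes letters and does not show that a factor binds there. The CLEAR element is known from lysosomal genes and the members were chosen by name as such genes. A higher share among them is therefore no independent result. The windows around the 7 members' core matches follow, 5′ to 3′ on the gene's strand, with the core in capitals, and with Lamp1, whose promoter held 4 E-boxes (capitals) but no core.
Ctsa (chr2:164833734-164833810, plus strand): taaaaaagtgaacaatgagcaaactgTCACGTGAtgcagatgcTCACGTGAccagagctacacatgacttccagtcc
Ctsd (chr7:142387893-142387952, minus strand): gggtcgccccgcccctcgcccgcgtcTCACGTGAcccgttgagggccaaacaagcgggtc
Gla (chrX:134601167-134601255, minus strand): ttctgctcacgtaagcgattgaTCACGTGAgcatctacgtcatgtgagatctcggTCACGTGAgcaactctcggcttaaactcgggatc
Mcoln1 (chr8:3500447-3500506, plus strand): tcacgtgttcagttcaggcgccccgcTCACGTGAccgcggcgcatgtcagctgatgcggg
Cln3 (chr7:126583325-126583384, minus strand): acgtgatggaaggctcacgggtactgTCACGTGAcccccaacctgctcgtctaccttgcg
Atp6v0d1 (chr8:105566035-105566094, minus strand): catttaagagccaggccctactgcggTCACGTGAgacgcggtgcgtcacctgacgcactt
Atp6v1a (chr16:44139358-44139417, minus strand): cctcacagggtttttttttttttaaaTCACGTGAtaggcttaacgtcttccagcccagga
Lamp1 (chr8:13159074-13159177, plus strand): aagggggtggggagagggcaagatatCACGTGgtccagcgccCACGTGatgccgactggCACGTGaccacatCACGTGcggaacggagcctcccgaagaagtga

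The core began 4 bases before the start in Atp6v0d1, 46 in Mcoln1, 99 in Ctsd, 122 in Cln3 and 132 in Atp6v1a. Ctsa held 2 cores, 1 beginning 13 bases before and 1 at base 5 after the start, and Gla held 2, beginning 228 and 195 bases before it. These starts are those of RefSeq. In the annotation used for symbols, the cores of Ctsa, Ctsd, Mcoln1, Cln3 and Atp6v1a lay inside the span of the gene. Those of Gla and Atp6v0d1 lay before it. Over the 7 members with the core the median log2 fold change between treated and untreated tumours was 0.03, with a range from -0.10 to 0.47. Over the 22 members whose promoters lacked it the median was -0.06, with a range from -0.36 to 0.31.

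The libraries held between 11.3 M and 28.9 M assigned reads, of which between 2.98 M and 7.37 M lay in nuclear protein-coding genes. In untreated tumour 3, 55.9% of reads came from mitochondrial ribosomal RNA, and in any other library at most 25.3% did. Levels are therefore given as CPM, reads scaled to library sizes that were corrected by TMM factors, which ran from 0.364 in untreated tumour 3 to 1.65 in vorinostat tumour 2. At these sizes 3 reads correspond to between 0.114 and 0.285 CPM, for counting error only. Untreated tumour 3 and vorinostat tumour 3 held the fewest reads in nuclear protein-coding genes, 2.98 M and 3.92 M, where every other library held 5.15 M or more. The mitochondrial ribosomal share of vorinostat tumour 3, 23.5%, did not stand apart. Values without both tumours are given below. The 6 melanocytic marker genes summed to between 5553 and 7752 CPM in each tumour. The keratinocyte genes Krt1, Krt5, Krt10 and Krt14 summed to between 0.381 CPM in untreated tumour 3 and 3.14 CPM in vorinostat tumour 3. Krt14 was at 0 in both. Krt1, Krt5 and Krt10 were each highest in vorinostat tumour 3, at 0.538, 2.15 and 0.448 CPM.

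No member passed the test of treated against untreated tumours. Log2 fold changes of vorinostat over untreated ran from -0.36 for Npc2 to 0.47 for Cln3, 16 above 0 and 16 below, with a median of 0.00 where all 14776 genes tested had a median of 0.03. With edgeR's quasi-likelihood fit 0 members had an adjusted p under 0.05, and neither did any other gene (0.0%). The members' adjusted p began at 0.743. No member had an unadjusted p under 0.05, where 6.27% of all genes did, 3.36% higher and 2.92% lower. Other settings also called 0 members, while the share of all genes called was 0.0181% with DESeq2, 0.0406% with limma-voom and quality weights, 0.264% and 0.352% with limma on log2(TPM + 1) and log2(TPM + 0.1), 0.471% with no filter, 0.736% without untreated tumour 2 and 0.00656% without untreated tumour 3. At an unadjusted p under 0.05 there was 1 member with DESeq2 (4.99% of all genes), limma-voom (5.64%), upper-quartile scaling (6.02%), log2(TPM + 1) (6.21%) and log2(TPM + 0.1) (6.82%). There was also 1 without untreated tumour 2 (15.1%), without vorinostat tumour 3 (3.68%) and without both untreated tumour 3 and vorinostat tumour 3 (3.71%), and there were 3 with quality weights (13.5%). For 31 members the 95% interval of the fold change lay wholly within a 2-fold change in either direction, and for 24 of these within 1.5-fold. Cln3 was the exception to the wider bound. In 22 of 32 members the difference between the group means was smaller than the SD within groups, on log2(CPM + 0.1), and in the other 10 it was not.

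**Figure D1:**
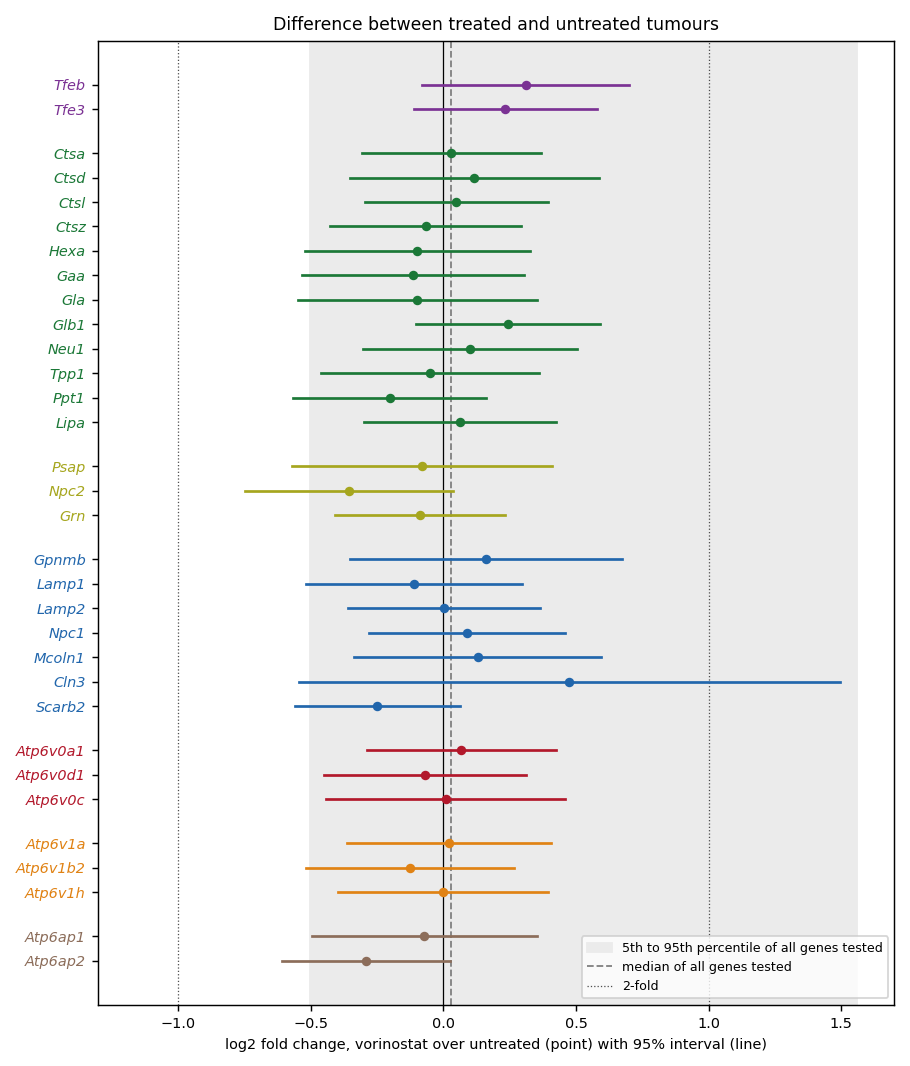
Log2 fold change of each member (point) with its 95% interval (line), coloured and grouped by role; the grey band spans the 5th to 95th percentile of the log2 fold changes of all genes tested, the dashed line is their median and the dotted lines mark 2-fold. Every interval crosses 0, and the Cln3 interval is the widest, from -0.55 to 1.49.

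The groups did not overlap for 3 members, where 12.1% of all genes were so separated in either direction. Cln3 was higher in every treated tumour, 1 of 32 members where 6.53% of all genes were so separated upwards. Scarb2 and Atp6ap2 were lower in every treated tumour, 2 of 32 where 5.53% of all genes were so separated downwards. These shares lie near those of all genes. Per kilobase of effective length the Cln3 groups overlapped, at 0.917, 1.08 and 2.53 CPM in untreated against 3.33, 1.66 and 4.49 CPM in treated tumours. On that scale the groups of Scarb2 and of Atp6ap2 still did not overlap. The scale mattered for the direction: on log2(TPM + 1), which carries no TMM factors, all 32 members lay above 0, with a median of 0.44 where that of all genes was 0.26, and 27 lay above the latter. On log2(TPM + 0.1) all 32 were again above 0, with a median of 0.48 against 0.51, so that 15 members lay above the median of all genes. Without untreated tumour 3 and vorinostat tumour 3, 21 members were above 0 and the median was 0.06. Without vorinostat tumour 3 alone it was 25 members and 0.10, and without vorinostat tumour 2 alone 7 members and -0.07.

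**Figure D2:**
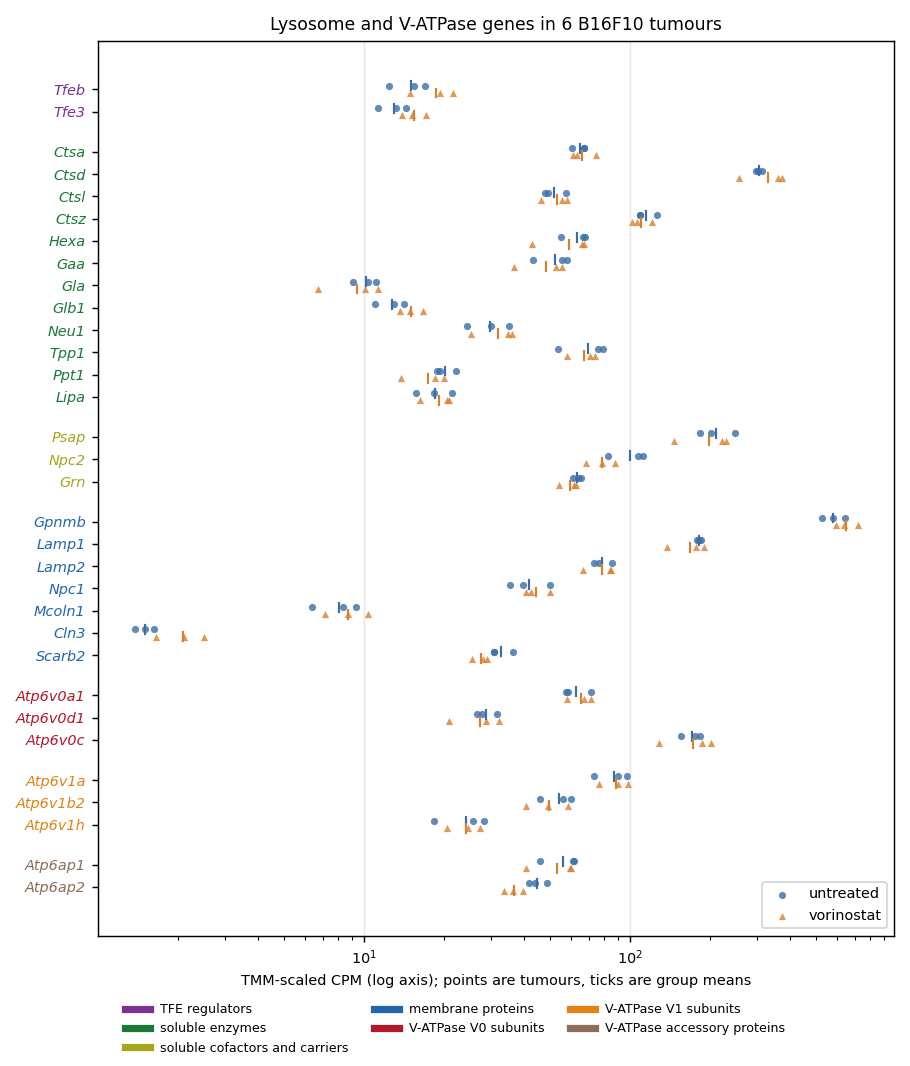
TMM-scaled CPM of every member in each tumour on a log axis, with circles for untreated and triangles for vorinostat tumours, short vertical lines for group means and label colours for roles. Levels run from 1.37 CPM for Cln3 to 720.1 CPM for Gpnmb, and within a gene the circles and triangles mostly interleave.

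The regulators came first in the plan of the pathway. Tfeb (ENSMUSG00000023990, chromosome 17 from 47737030 to 47792419), a factor that drives lysosome and autophagy genes, stood at 17.0, 15.4 and 12.5 CPM in untreated tumours 1, 2 and 3 and at 19.4, 21.5 and 14.9 CPM in vorinostat tumours 1, 2 and 3. Vorinostat tumour 3 fell among the untreated tumours, and the other treated tumours lay above all of them. The log2 fold change was 0.31 (SE 0.18, 95% interval -0.08 to 0.70, edgeR adjusted p 0.745). Tfe3 (ENSMUSG00000000134, chromosome X from 7762560 to 7775202), its close relative, stood at 13.2, 14.4 and 11.3 CPM in the untreated and 15.1, 13.8 and 17.1 CPM in the treated tumours. Vorinostat tumour 2 lay below untreated tumour 2, and the other treated tumours lay above every untreated one (log2 fold change 0.23, SE 0.16, edgeR adjusted p 0.767). With the effective length of each library as an offset in edgeR, the log2 fold change of Tfe3 was 0.0053 (SE 0.17, adjusted p 0.996) and that of Tfeb 0.30 (SE 0.21, adjusted p 0.783). Added together, the 2 genes stood at 27.9 ± 3.60 CPM in untreated and 33.9 ± 1.72 CPM in treated tumours (SD, n = 3 each), and the sums did not overlap, from 23.8 to 30.2 CPM against 32 to 35.3 CPM. That sum was formed after the values of both genes were seen, is not corrected for length and has no test. With upper-quartile scaling Tfeb had an unadjusted p under 0.05, as it did in the fits without vorinostat tumour 3. Per kilobase of effective length, the scale on which genes can be compared, Tfeb stood at 8.51 ± 2.27 and 10.7 ± 0.286 CPM and Tfe3 at 5.50 ± 0.541 and 5.58 ± 0.205 CPM in untreated and treated tumours. Mitf, the third expressed relative, stood far above both at 73.3 ± 4.86 and 69.4 ± 9.16 CPM per kilobase, and the last of the family, Tfec, at 0.670 ± 0.587 and 0.506 ± 0.176 CPM per kilobase (SD, n = 3 each).

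Of the 12 soluble enzymes 6 had a log2 fold change above 0 and 6 below, with a median of -0.01 and a range from -0.20 to 0.24. Their summed level was 812 ± 41.9 CPM in untreated and 826 ± 129 CPM in treated tumours (SD, n = 3 each). Vorinostat tumour 3 held the lowest sum, 677 CPM, and vorinostat tumour 1 the highest, 906 CPM, so the treated tumours spread around the untreated ones. Ctsd, the aspartic protease cathepsin D and the most abundant enzyme of the list, stood at 314, 297 and 302 CPM in the untreated tumours. In the treated tumours it stood at 361, 373 and 256 CPM, on both sides of that narrow range (log2 fold change 0.12, SE 0.21, edgeR adjusted p 0.921). Glb1, the beta-galactosidase used as a senescence stain, had the smallest p of the enzymes at 14.1, 12.9 and 11 CPM against 14.8, 16.7 and 13.6 CPM. Only vorinostat tumour 3 fell inside the untreated range (log2 fold change 0.24, SE 0.16, edgeR adjusted p 0.766). Its exons overlap those of Tmppe on the same strand, so reads can be shared between these genes. Ppt1, which removes palmitate from proteins, stood at 22.2, 18.8 and 19.3 CPM against 20.0, 18.5 and 13.8 CPM, with vorinostat tumour 3 the lowest (log2 fold change -0.20, SE 0.17, edgeR adjusted p 0.811). Cap1, a gene on the opposite strand with overlapping exons, held 7030 reads over the 6 libraries against 2185 for Ppt1. The library kit keeps strand, but whether the quantification used it was not stated.

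The other 9 enzymes had log2 fold changes from -0.11 for Gaa, which breaks down glycogen, to 0.10 for the sialidase Neu1. The proteases Ctsz and Ctsa stood at 115 ± 10.2 and 64.8 ± 3.92 CPM in untreated tumours, and at 110 ± 9.86 and 66.2 ± 7.23 CPM in treated ones. Ctsl, a cysteine protease, stood at 51.6 ± 5.15 against 53.2 ± 6.24 CPM. Hexa, whose loss causes ganglioside storage, and Tpp1, a tripeptidyl peptidase, stood at 63 ± 6.76 and 69.6 ± 14.0 CPM untreated, and at 58.8 ± 13.7 and 67.3 ± 8.38 CPM treated. Lipa, the acid lipase that frees cholesterol from its esters, stood at 18.5 ± 2.89 against 19.2 ± 2.56 CPM, and the galactosidase Gla at 10.2 ± 1.01 against 9.37 ± 2.37 CPM (SD, n = 3 each). In each of these 9 genes the groups overlapped.

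The 3 soluble cofactors and carriers all had log2 fold changes below 0, with a median of -0.09, and none passed the test; on both TPM scales all 3 lay above 0. Npc2 (ENSMUSG00000021242, chromosome 12 from 84754562 to 84773152), which hands cholesterol to NPC1 in the lysosome, was the member with the lowest fold change. It stood at 107, 82.5 and 111 CPM in untreated tumours and at 87.9, 78.5 and 68.4 CPM in treated ones. Untreated tumour 2 fell among the treated tumours, and untreated tumours 1 and 3 lay above them all. The log2 fold change was -0.36 (SE 0.18, 95% interval -0.75 to 0.04, edgeR adjusted p 0.743), and -0.17 without untreated tumour 3 and vorinostat tumour 3. Psap, the precursor of the saposins that help enzymes reach their lipids, stood at 201, 183 and 247 CPM against 221, 229 and 146 CPM, with the extremes in untreated tumour 3 and vorinostat tumour 3 (log2 fold change -0.08, SE 0.22). Grn, progranulin, was steady, at 65.2, 63.6 and 60.8 CPM against 61.6, 62.6 and 54.3 CPM (log2 fold change -0.09, SE 0.15). The adjusted p of these last genes were 0.954 and 0.913 in edgeR.

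Of the 7 membrane proteins 5 had a log2 fold change above 0 and 2 below, with a median of 0.09. Gpnmb (ENSMUSG00000029816, chromosome 6 from 49036546 to 49070929), a glycoprotein of melanosomes and lysosomes and a known TFE and MITF target, was the member with the highest CPM. It stood at 577, 640.0 and 524 CPM in untreated and at 638, 720.1 and 592 CPM in treated tumours. Vorinostat tumour 2 exceeded every untreated tumour and the others did not (log2 fold change 0.16, SE 0.23, 95% interval -0.35 to 0.68, edgeR adjusted p 0.897). Lamp1 and Lamp2 encode the main glycoproteins that line the lysosome. Lamp1 stood at 185, 182 and 178 CPM against 189.8, 178 and 137 CPM, with vorinostat tumour 3 apart from the rest (log2 fold change -0.11, SE 0.19, edgeR adjusted p 0.912). Lamp2 stood at 85.5, 76.2 and 73.0 CPM against 84.7, 84.0 and 66.4 CPM, and its group means were 78.2 ± 6.53 and 78.4 ± 10.4 CPM (SD, n = 3 each).

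Scarb2 (ENSMUSG00000029426, chromosome 5 from 92441314 to 92506833), the receptor that carries glucocerebrosidase to the lysosome, stood at 36.2, 30.7 and 30.9 CPM in untreated and 28.9, 28 and 25.4 CPM in treated tumours. The groups lay apart by 1 narrow gap, between 28.9 and 30.7 CPM, and the log2 fold change was -0.25 (SE 0.14, 95% interval -0.56 to 0.06, edgeR adjusted p 0.745). Npc1, the membrane partner of NPC2 in cholesterol export, stood at 49.9, 39.6 and 35.5 CPM against 42.6, 49.9 and 40.6 CPM, a full overlap (log2 fold change 0.09, SE 0.17). Mcoln1, the calcium channel that signals lysosomal stress to TFEB, stood at 6.37, 9.31 and 8.37 CPM against 7.13, 10.4 and 8.70 CPM. Its treated and untreated values interleaved (log2 fold change 0.13, SE 0.21, edgeR adjusted p 0.910). Cln3 (ENSMUSG00000030720, chromosome 7 from 126571207 to 126585817), a membrane protein lost in juvenile Batten disease, was the least abundant member at 1.37, 1.51 and 1.62 CPM against 2.10, 1.65 and 2.51 CPM. These values rest on 36, 27 and 17 reads in the untreated and 53, 36 and 28 reads in the treated libraries, and vorinostat tumour 2 cleared untreated tumour 3 by less than the worth of 3 reads. The log2 fold change was 0.47 (SE 0.46, edgeR adjusted p 0.846). Exons of Apobr on the opposite strand overlap Cln3, and Apobr held 236 reads over the 6 libraries against 197 for Cln3.

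None of the V-ATPase members passed the test. Of 8 genes 3 had a log2 fold change above 0 and 5 below, with a median of -0.03 and a range from -0.29 to 0.07. Their summed level was 528 ± 54.4 CPM in untreated and 516 ± 84.4 CPM in treated tumours (SD, n = 3 each). In the V0 sector, Atp6v0c, the proteolipid that forms the proton-carrying ring, stood at 176, 182 and 155 CPM against 201, 186 and 129 CPM. Atp6v0a1, the large subunit through which protons cross, stood at 71.6, 58.5 and 57.4 CPM against 67.2, 71.5 and 57.8 CPM. Atp6v0d1, the collar that joins the ring to the stalk, stood at 27.8, 31.5 and 26.6 CPM against 28.7, 32.2 and 20.8 CPM. In each V0 gene the groups overlapped, and the log2 fold changes were 0.01 (SE 0.21), 0.07 (SE 0.16) and -0.07 (SE 0.17).

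In the V1 sector, Atp6v1a, the catalytic subunit, stood at 97.5, 89.9 and 73.0 CPM against 90.0, 97.9 and 76.5 CPM. Atp6v1b2, its non-catalytic partner, stood at 60.2, 55.8 and 45.7 CPM against 49.3, 58.4 and 40.5 CPM. Atp6v1h, a regulatory subunit of the stalk, stood at 25.8, 28.2 and 18.4 CPM against 27.3, 24.6 and 20.5 CPM. Untreated tumour 3 and vorinostat tumour 3 were the lowest libraries of their groups in all 3 genes, and the log2 fold changes were 0.02 (SE 0.17), -0.13 (SE 0.18) and 0.00 (SE 0.18). The edgeR adjusted p of the V0 and V1 genes were 0.897 or more. Of the accessory proteins, Atp6ap1, an assembly factor, stood at 61.3, 60.8 and 46.0 CPM against 59.7, 59.9 and 40.5 CPM (log2 fold change -0.07, SE 0.19). Atp6ap2 (ENSMUSG00000031007, chromosome X from 12587801 to 12617049), also known as the prorenin receptor, stood at 48.6, 41.7 and 43.9 CPM against 36.4, 39.4 and 33.7 CPM. Every treated tumour lay below every untreated one, by a gap from 39.4 to 41.7 CPM. It had the smallest p of all members, 0.068 before adjustment (log2 fold change -0.29, SE 0.14, 95% interval -0.61 to 0.03, edgeR adjusted p 0.743).

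Per kilobase of effective length the pump genes spread widely. Atp6v0c had the highest mean of the 32 members at 185 ± 29.2 CPM per kilobase (SD, n = 6 tumours), but Gpnmb at 174 ± 19.4 and Ctsd at 171 ± 22.7 CPM per kilobase lay within that SD. In vorinostat tumour 3 both stood above it, at 167 and 142 against 139 CPM per kilobase. Next among the pump genes came Atp6ap1 at 30.9 ± 5.72, Atp6v0a1 at 26.3 ± 5.75, Atp6v1a at 23.7 ± 3.69 and Atp6v1b2 at 22.0 ± 2.92 CPM per kilobase. Below them stood Atp6v0d1 at 20.4 ± 3.05, Atp6ap2 at 19.7 ± 2.44 and Atp6v1h at 14.3 ± 2.35 CPM per kilobase (SD, n = 6 tumours of both groups). Neighbours from Atp6ap1 down to Atp6ap2 differed by less than the SD of either gene over the 6 tumours. The lowest level of the 32 members was that of Cln3 at 2.34 CPM per kilobase.

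Vorinostat tumour 3 held the lowest CPM of 18 of the 32 members (56.2%) where it held the lowest of 18.3% of all genes tested, and untreated tumour 3 held the lowest of 11 (34.4%) against 26.7% of all genes. The highest value lay in untreated tumour 1 for 10 members (31.2%, against 13.1% of all genes) and in vorinostat tumour 2 for 8 (25%, against 11.2%). Relative to each gene's own mean over the 6 tumours, the median member stood at -0.23 in vorinostat tumour 3, at -0.11 in untreated tumour 3 and from 0.05 to 0.13 elsewhere, on log2(CPM + 0.1). The 6 melanocytic markers were also low there, at -0.26 in vorinostat tumour 3 and -0.17 in untreated tumour 3. Psap and Npc2 were high in untreated tumour 3, at 0.29 and 0.34, while Grn stood at -0.01 there, and all 3 cofactors were lowest in vorinostat tumour 3. The 14 macrophage and monocyte markers, cells that are also rich in lysosomes, were highest in untreated tumour 3 too, at a median of 0.76, and lowest in untreated tumour 2 at -0.85. Marker lists of neutrophils (2.09), endothelial cells (0.95), fibroblasts (0.81) and T cells (0.35) were also above their means in untreated tumour 3. These medians rest on the 3, 3, 6 and 5 genes of each list that were tested, most of them at a few CPM. The endothelial list was higher still in vorinostat tumour 3, at 1.06. Of the 6 fibroblast markers 5 had a log2 fold change below 0, with a median of -0.86 and 2 at an unadjusted p under 0.05, and none was called by edgeR. The macrophage and monocyte markers summed to 207, 119 and 400 CPM in untreated and 247, 252 and 189.8 CPM in treated tumours. All 14 of them were tested and detected, with Ptprc at 28.3 CPM and Lyz2 at 160 CPM in untreated tumour 3. Ptprc is shared by all leukocytes and Itgam by neutrophils, so the list is not specific to macrophages and monocytes. The part of these cells, and of the tumour cells, in the members' values was not tested, and in such bulk samples fewer cells of a type and less RNA per cell cannot be told apart.

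**Figure D3:**
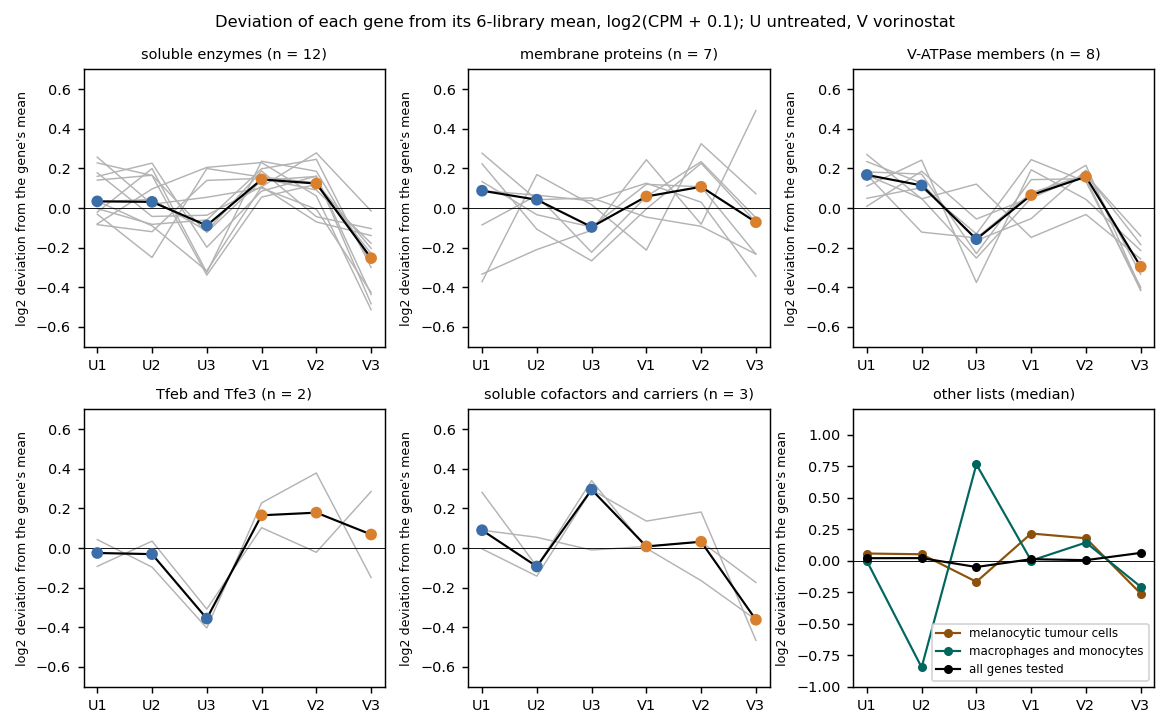
Deviation of each gene from its own mean over the 6 tumours on log2(CPM + 0.1), by role, with grey lines for genes, black lines for the median and point colours for group; the last panel gives the medians of the melanocytic and macrophage marker lists and of all genes tested. The soluble enzymes and V-ATPase members dip in vorinostat tumour 3, while the macrophage list peaks in untreated tumour 3 at 0.76.

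The deposited gene length, an average over transcripts weighted by their estimated abundance, gave a further readout. It was the same in all 6 libraries for 9 members and varied by over 1.5-fold for 3, Mcoln1, Cln3 and Tfe3. The groups did not overlap in 3 members. Atp6v0a1 (ENSMUSG00000019302, chromosome 11 from 101009452 to 101063719) was shorter in treated tumours, at 2842, 2788 and 3519 bases against 2463, 2366 and 2527 bases. Ctsd was also shorter, at 2127, 2128 and 2125 against 2099, 2122 and 2054 bases, a difference of at most a few percent. Atp6ap1 was longer, at 1971, 1936 and 1968 against 2063, 2105 and 2124 bases. Among all genes tested 3.8% were so separated towards shorter and 2.56% towards longer lengths in treated tumours. For Cln3 the lengths were 1741, 1661 and 871 against 877, 1257 and 803 bases, and for Mcoln1 837, 1548 and 809 against 1752, 1109 and 722 bases, so that both overlapped between the groups.

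With the effective length of each library as an offset in edgeR, an added setting, the log2 fold change of Atp6v0a1 was 0.38 (SE 0.22, adjusted p 0.758) in place of 0.07. That of Tfe3 was 0.0053 in place of 0.23. That of Cln3 was 1.09 (SE 0.62, adjusted p 0.756) in place of 0.47, and that of Atp6ap1 was -0.19 (SE 0.22, adjusted p 0.867) in place of -0.07. Atp6v0a1, Cln3 and Tfe3 were the 3 members whose value moved by 1 SE or more. No member passed the threshold with this offset either. Transcripts were not quantified separately in the tables used here, so these lengths do not show which isoform differed.

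**Figure D4:**
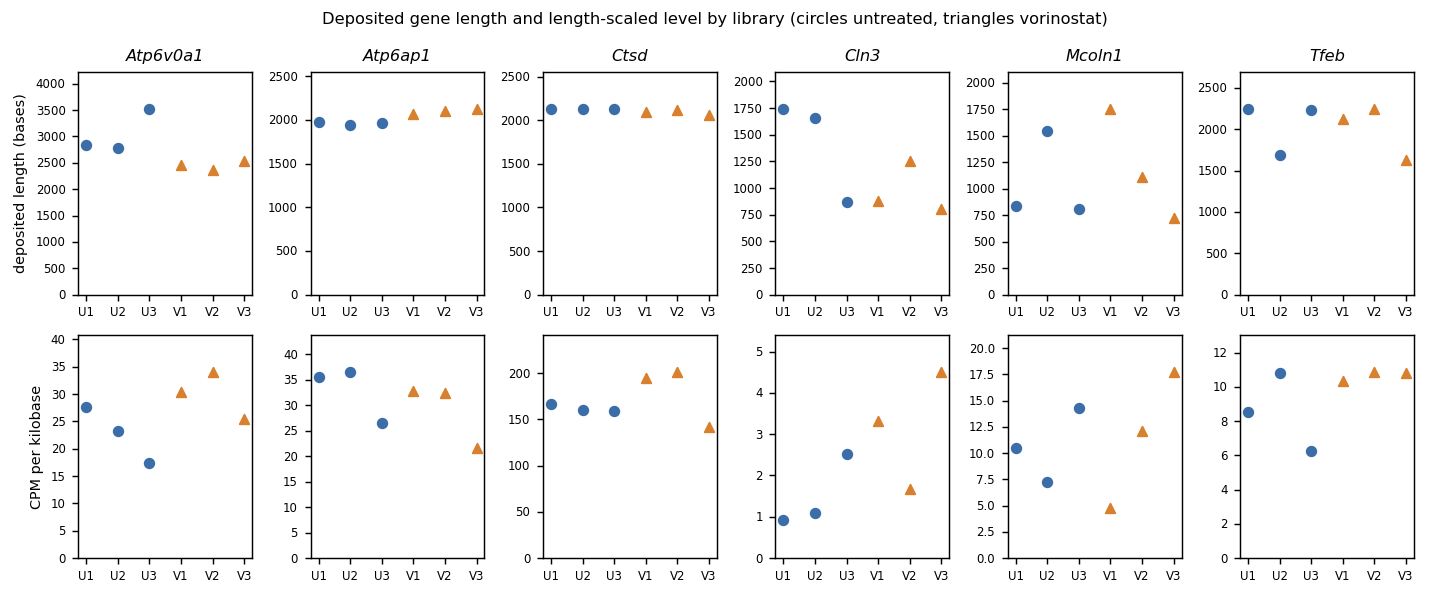
Deposited length in bases (top) and CPM per kilobase of effective length (bottom) for 6 members in each tumour, with circles for untreated and triangles for vorinostat tumours and all axes starting at 0. The Atp6v0a1 length is 2788 bases or more in untreated and 2527 bases or less in treated tumours, while Cln3, Mcoln1 and Tfeb lengths overlap.

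Other genes of the pathway were read from 4 further lists. Other hydrolases were read from a list of 32 genes, all tested, which also holds Gm2a, an activator protein and not an enzyme. Of these 10 had a log2 fold change above 0 and 22 below, with a median of -0.09, and none was called by edgeR. Idua, which degrades glycosaminoglycans, stood at 4.39, 4.35 and 5.23 CPM against 3.33, 2.80 and 2.69 CPM, apart by group (log2 fold change -0.65, SE 0.27, edgeR adjusted p 0.743). Per kilobase of effective length its groups overlapped, at 1.44, 1.40 and 2.80 against 1.52, 0.935 and 1.31 CPM. Acp2, a lysosomal acid phosphatase, stood at 20.6, 14.5 and 34.6 CPM against 15.0, 13.6 and 16.4 CPM, with untreated tumour 3 far above the rest (log2 fold change -0.62, SE 0.26, edgeR adjusted p 0.743). These 2 were the only genes of this list with an unadjusted p under 0.05, where 2.92% of all genes were lower at that level. On CPM, 3 of the 32 genes lay apart by group downwards, Idua among them, and 0 upwards, where 5.53% and 6.53% of all genes did.

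Of 22 other membrane and sorting genes 3 were above 0 and 19 below, with a median of -0.11, and none was called. Tmem192, a lysosomal membrane protein, stood at 11.6 ± 1.63 against 9.16 ± 1.61 CPM, and Slc17a5, the sialic acid exporter, at 6.62 ± 0.596 against 5.26 ± 0.462 CPM (SD, n = 3 each). On CPM, 2 of the 22 genes lay apart by group downwards, Slc17a5 among them, and 0 upwards, where 5.53% and 6.53% of all genes did. Of 13 other V-ATPase genes 12 were tested, 4 above 0 and 8 below, with a median of -0.04. Atp6v0e2 stood at 35.7, 35.8 and 40.9 CPM against 34.2, 29.2 and 26.7 CPM, while its relative Atp6v0e stood at 23.9, 22.6 and 19.8 CPM against 29.7, 25.9 and 23.0 CPM. The log2 fold changes of these small V0 subunits were -0.31 (SE 0.15) and 0.24 (SE 0.15), with edgeR adjusted p of 0.743 and 0.758. Of the 12 tested genes 2 lay apart by group downwards on CPM, Atp6v0e2 among them, and 0 upwards, beside the same shares of all genes.

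Of 20 further TFE and nutrient-sensing genes 5 were above 0 and 15 below, with a median of -0.04. Tsc1, part of the complex that restrains mTORC1, stood at 15.4, 21.9 and 19.9 CPM against 13.9, 13.0 and 14.4 CPM, every treated tumour below every untreated one (log2 fold change -0.47, SE 0.16, unadjusted p 0.0152, edgeR adjusted p 0.743). Rraga, a GTPase that brings mTORC1 to the lysosome, stood at 15.5, 17.3 and 14.1 CPM against 20.0, 20.4 and 17.8 CPM, every treated tumour above every untreated one (log2 fold change 0.31, SE 0.14, edgeR adjusted p 0.743). Per kilobase of effective length the Tsc1 groups overlapped and the Rraga groups did not. On CPM, 1 of the 20 genes lay apart by group upwards and 2 downwards, where 6.53% and 5.53% of all genes did. Neither Tsc1 nor Rraga passed the threshold over all genes.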

How the data were processed

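RNA of 6 tumours was measured as stranded total RNA libraries read as paired ends, per the labels' protocols. FastQC, Trim Galore and Salmon and the build GRCm38 are named in the submitters' processing notes; the versions, annotation and strand setting were not stated. Per the file headers, each deposited table gives the length, effective length, TPM and estimated count of reads of 44679 genes. The estimated counts deposited by the authors were rounded to whole numbers. The TPM values deposited by the authors served as an alternative scale only. Symbols came from GENCODE M21 (GRCm38), which named 44118 genes. Promoters came from RefSeq.

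edgeR 4.0.16 in R 4.3.3 fitted treatment alone (quasi-likelihood test, TMM, filterByExpr, two-sided, Benjamini-Hochberg over 14776 genes), with a threshold of 0.05. Each SE came from the F statistic, and each 95% interval from the SE. The code was tested on simulated counts, where it recovered 48% of 100 genes changed 2-fold and 83% of 100 genes changed 4-fold, with 10 false calls. A real 2-fold change can therefore go uncalled. The members and lists were chosen with earlier results of these data known. Values in every tumour are given for fixed members of each role, for the 2 of each role with the smallest p, for those whose groups did not overlap and for all V-ATPase members. Other lists name the 2 genes with the smallest p. Alternatives used DESeq2 1.42.0, limma 3.58.1, other scalings and filters, subsets of genes, and left-out libraries. The effective length offset and robust dispersions were added after the data were examined. The titles' G numbers (1, 1 and 2 against 3, 3 and 4) never occur in both groups. What sets G numbers 1 and 2 apart from 3 and 4 therefore cannot be told apart from treatment. Within the groups, untreated tumour 3 (G 2) and vorinostat tumour 3 (G 4) differ in G number from the other tumours. The labels do not say what the number means, and its part in the low values of these tumours was not tested.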

Additional observations from a re-analysis of the deposited data

How the results depend on the processing

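No setting called a member. The count of all genes called, 0 in edgeR, was 156 with no filter, 6 with DESeq2, 6 with limma-voom and quality weights, 39 on log2(TPM + 1), 52 on log2(TPM + 0.1) and between 0 and 121 when 1 library was left out (121 without untreated tumour 2, 1 without untreated tumour 3). The count of members with an unadjusted p under 0.05, otherwise 0, was 1 with upper-quartile factors (Tfeb), 1 with DESeq2 and 1 with limma-voom (both Npc2), 3 with quality weights (Npc2, Scarb2, Atp6ap2), 1 on each TPM scale (Cln3), 1 without untreated tumour 3 and vorinostat tumour 3 (Tfeb), and 0 to 1 when 1 library was left out (Npc2 without untreated tumour 2, Tfeb without vorinostat tumour 3). On log2(TPM + 1) and log2(TPM + 0.1), where the medians of all genes were 0.26 and 0.51, the role medians were 0.53 and 0.69 for the TFE regulators, 0.44 and 0.47 for soluble enzymes, 0.42 and 0.43 for cofactors, 0.45 and 0.52 for membrane proteins, 0.51 and 0.52 for V0, 0.49 and 0.59 for V1 and 0.26 and 0.29 for accessory proteins, and 0.44 and 0.48 over all members. The membrane protein median was 0.022 with no filter and ran from -0.044 (without vorinostat tumour 2) to 0.13 (without vorinostat tumour 3) with 1 library left out. The summed cofactor level had a fold of 1.06 of vorinostat over untreated without untreated tumour 3 and vorinostat tumour 3, and 0.90 with all libraries. Signs of uncalled members changed often: 16 members on the TPM scales and between 5 and 9 with 1 library left out. The cause of these changes was not tested. The depth of 17 to 53 reads limits Cln3.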

Other observations

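Autophagy genes, whose products deliver cargo to the lysosome, were read from a list of 20, all tested. Of these 11 had a log2 fold change above 0 and 9 below, with a median of 0.04 beside 0.03 for all genes, and none was called by edgeR. Sqstm1, the cargo receptor p62, stood at 248, 254 and 189.8 CPM in untreated and 303, 333 and 217 CPM in treated tumours, with vorinostat tumour 3 inside the untreated range; its log2 fold change was 0.30 with an SE of 0.22 (edgeR adjusted p 0.782). Ulk1, the kinase that starts autophagy, stood at 10.6, 11.9 and 12.3 CPM against 7.68, 12.5 and 9.15 CPM, and its log2 fold change was -0.24 with an SE of 0.20 (edgeR adjusted p 0.811).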
